A study of Mus musculus with 16 samples.

Results

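The genes described here are the receptors and transporters of glutamate and GABA, measured by RNA-seq in murine sympathetic ganglia and in pancreatic fibroblasts grown near each other. Members were taken by name from the protein-coding rows of both deposited tables: the AMPA (Gria), kainate (Grik), NMDA (Grin) and metabotropic (Grm) glutamate receptors, the Slc1a transporters, and the GABA-A subunits (Gabr). The rule found 50 genes among 56941 annotated genes, 21684 of them protein-coding: 16 ionotropic glutamate receptor subunits, 8 metabotropic receptors, 7 Slc1a transporters and 19 GABA-A subunits. Each of the 50 was present in both tables.

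The study asked how sympathetic nerves and fibroblasts of the tumor stroma change each other, and it compared 5 kinds of culture. PSC was mPSC1, an immortalized murine pancreatic stellate cell line, grown alone (n = 3), and PSC+SCG was the same line grown on inserts above explants of superior cervical ganglia (n = 3). SCG was ganglion explants from C57BL/6J pups of postnatal day 1 to 4 alone (n = 3), SCG+MEF was explants below inserts carrying NIH 3T3 embryonic fibroblasts (n = 3), and SCG+PSC was explants below inserts carrying mPSC1 cells (n = 4). Wells held 8 to 13 explants, inserts held 10000 cells, and cocultures lasted about 70 hours. All explants were kept with nerve growth factor and serum, the ganglia in the controls included. Each fibroblast population is 1 cell line, the labels do not say which pups gave which well, and an explant holds neurons, glia, fibroblasts and vessels together, so that in these libraries fewer cells of a type and less RNA per cell cannot be told apart.

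Glutamate is the main excitatory transmitter of the brain and GABA the main inhibitory one. AMPA, kainate and NMDA receptors are cation channels built of several subunits around a pore, and the metabotropic receptors signal through G proteins. GABA-A receptors are chloride channels, usually with alpha, beta and gamma types together, and Slc1a proteins carry glutamate or neutral amino acids into cells. Sympathetic ganglion cells are driven mainly by acetylcholine, but they are known to bear GABA-A receptors that depolarize them, and glutamate transporters are used by many cells outside the nervous system for nutrition and redox balance.

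Reads assigned to genes ranged from 31900689 to 41632381 per library. Markers separated the 2 kinds of culture: of 10 sympathetic neuron markers, 8 stayed under 10 normalized counts in every PSC and in every PSC+SCG library, among them Th and Dbh, and most of the summed level of 580 to 1011 came from Hand2, against 115826 to 266655 in the nerve libraries. Fibroblast markers summed to 208254 to 405315 in the nerve libraries and to 395955 to 682253 in the PSC libraries. The libraries SCG+PSC 3 and SCG+PSC 4 were closer to each other (chi-square per degree of freedom 6.89 over 17411 genes) than any other pair of one group (27.4 to 146.8), although further apart than sampling noise. Only replicates 1 to 3 entered the tests of SCG+PSC, and the value of replicate 4 is printed beside them.

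PSCs and ganglia carried different sets of these genes. A mean normalized count of at least 100 was reached by 10 of 50 genes in the table of PSC libraries and by 22 in the table of nerve libraries, and 8 genes passed that level in both: Gabra3, Gria3, Gria4, Grik5, Grin2d, Grin3a, Slc1a4 and Slc1a5. Gabre and Slc1a3 reached it only in the PSC table, where 10 genes that reached it in the nerve table stayed under 10 (among them Gabra2, Gabrg1, Gria2, Grik3, Grik4, Grin1, Grin2c, Grm7 and Slc1a1). The tables were normalized apart, so these are levels side by side and not a test. Gabra6, Gabrp and Gabrr3 were at 0 in all 16 libraries, which allows up to 3 reads per library for counting error alone.

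**Figure D1:**
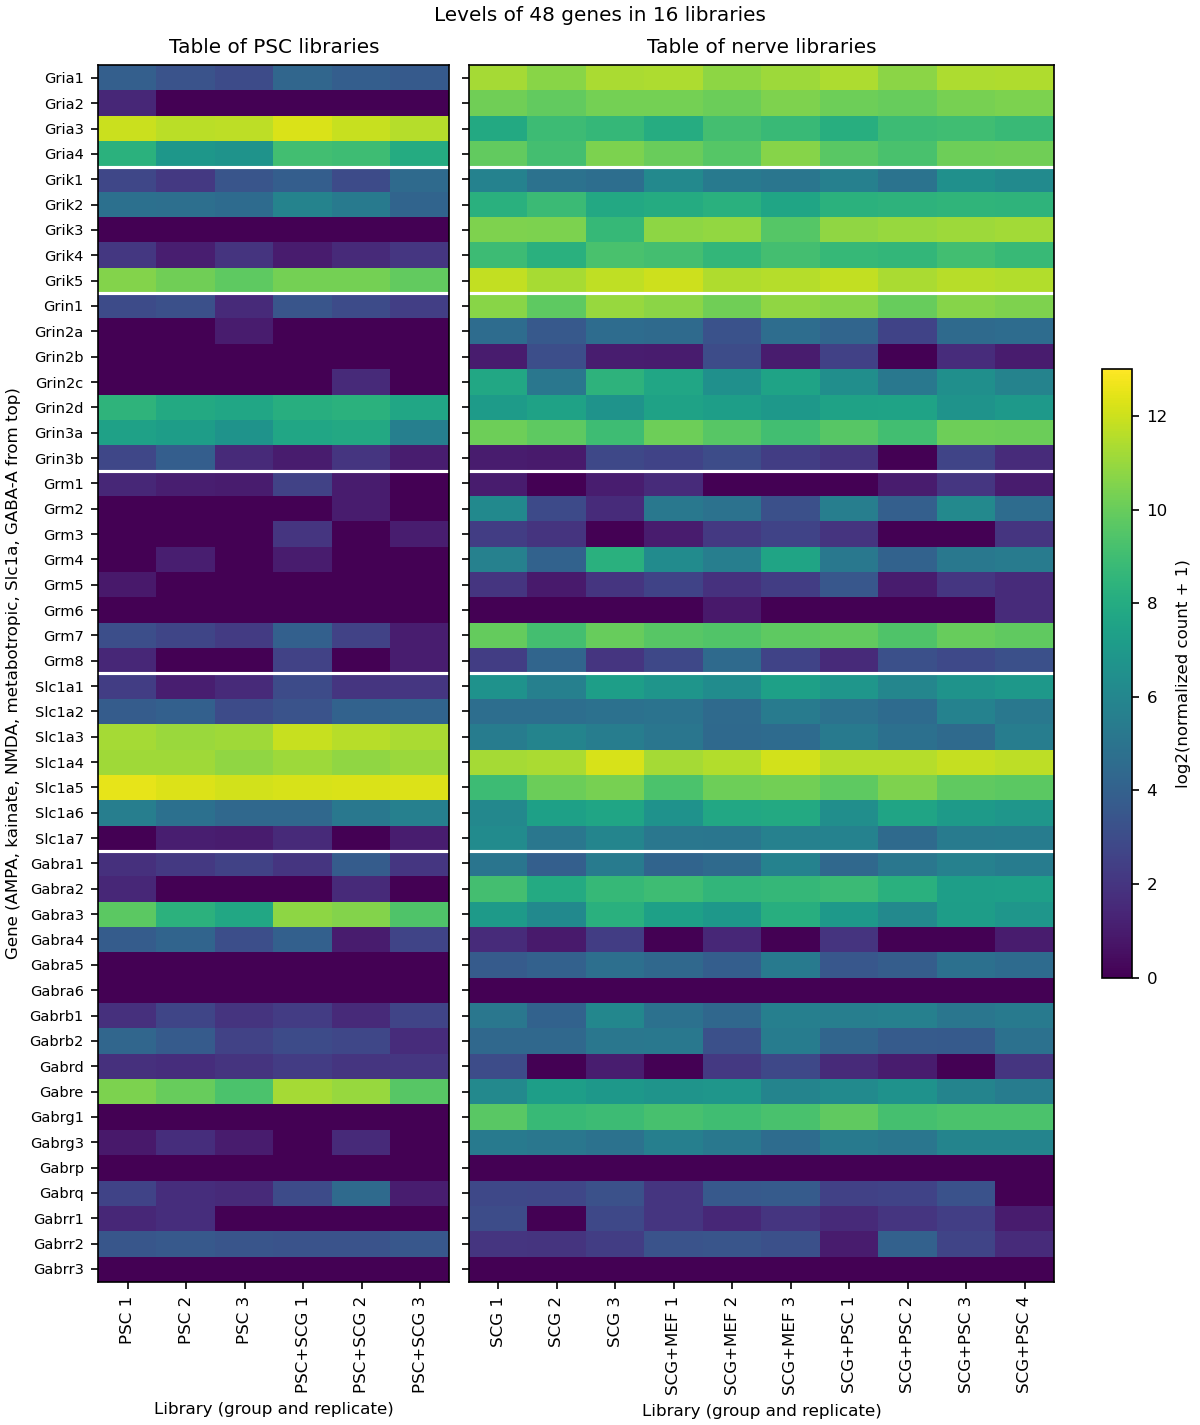
Colour gives log2(normalized count + 1) of 48 of the 50 genes (rows, grouped by class) in each library (columns) of the PSC table (left) and the nerve table (right). PSC libraries show 10 bright rows, led by Slc1a5 and Gria3, and no bright metabotropic receptor, whereas more rows are bright in the nerve libraries.

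Among AMPA subunits, PSCs were dominated by Gria3. Per kb of exon, Gria3 made up 93.7% to 98.3% of the summed AMPA level in the 6 PSC libraries, with normalized counts of 3916, 3205 and 3384 in PSC and of 4959, 3857 and 3031 in PSC+SCG. Gria2, whose edited subunit makes AMPA channels nearly impermeable to calcium, averaged 0.56 ± 0.98 (SD, n = 3) in PSC and was at 0 in all 3 PSC+SCG libraries. In the nerve libraries Gria1 led instead, with 59.0% to 73.5% of the summed level per kb, and Gria2 ranged from 928 to 1416.

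The kainate class was nearly a single gene in PSCs. Grik5, a subunit that needs a low-affinity partner (Grik1, Grik2 or Grik3) to form a channel, had 1201 ± 344 normalized counts in PSC and 1149 ± 176 in PSC+SCG (SD, n = 3 each). The partner Grik3 was at 0 in all 6 PSC libraries, Grik1 ranged from 3.41 to 21.3 and Grik2 from 17.0 to 55.4. In ganglia Grik5 (2497 to 4066) and Grik3 (421 to 2336) were both high, and Grik2 ranged from 199 to 470.

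NMDA subunits of PSCs were Grin2d (204 to 355 normalized counts) and Grin3a (47.9 to 232), while Grin1, the subunit that every NMDA receptor requires, ranged from 1.93 to 9.89. Ganglia had Grin1 at 868 to 2023, Grin3a at 505 to 1112, Grin2d at 102 to 184 and Grin2c at 35.2 to 342. No metabotropic receptor averaged 10 in the PSC table. In ganglia Grm7, a presynaptic receptor that lowers transmitter release, made up 82.8% to 95.8% of the summed metabotropic level per kb.

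Of the transporters, PSCs carried 3 at high level. Slc1a5 (ASCT2, a glutamine exchanger) averaged 5193 ± 720 in PSC and 4916 ± 156 in PSC+SCG, and was the highest of the 50 genes per kb in that table (1828 normalized counts per kb over its 6 libraries). Slc1a4 (ASCT1, a serine and alanine carrier) averaged 2112 ± 242 and 2061 ± 213. Slc1a3 (GLAST, a glutamate transporter typical of astroglia) averaged 2282 ± 178 in PSC. In ganglia Slc1a4 was the highest member per kb (790 over 10 libraries), Slc1a5 averaged 960 ± 427 in SCG, and Slc1a3 lay between 21.0 and 58.0 in all 10.

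GABA-A subunit genes lie in groups on a few chromosomes, and PSCs and ganglia differed in the genes they carried at high level. Gabre and Gabra3, epsilon and alpha3, lie with Gabrq (theta) on chromosome X (GRCm39 71299605 to 71886208), and made up 61.5% to 78.1% and 15.9% to 32.9% of the summed GABA-A level per kb in PSC libraries. Gabrg1, a gamma subunit, was at 0 in all 6 libraries. In ganglia Gabrg1 and Gabra2, which lie together on chromosome 5 (70906506 to 72319431), averaged 577 ± 211 and 403 ± 153 in SCG (SD, n = 3). They made up only 15.1% to 31.8% and 3.5% to 12.8% of the summed GABA-A level per kb in the nerve libraries. Gabrb1 and Gabra4 of the same group averaged 37.9 and 1.27 there.

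**Figure D2:**
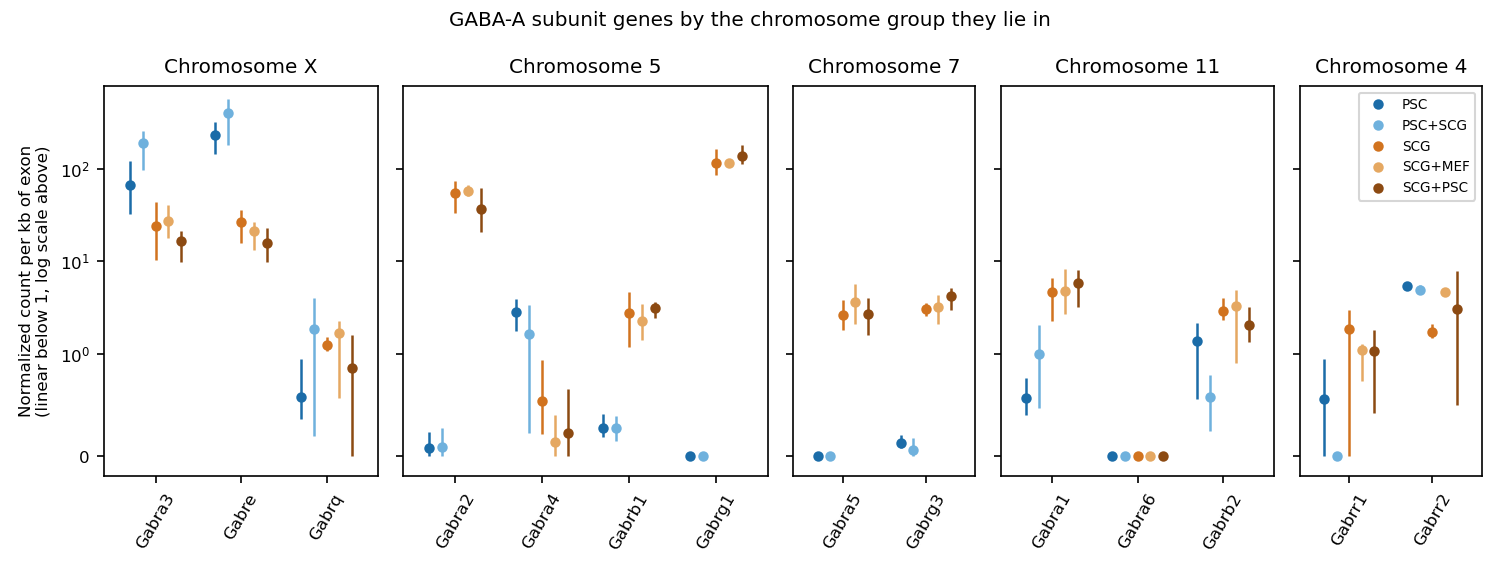
Normalized count per kb of exon (vertical axis, linear below 1 and logarithmic above) of 14 GABA-A subunit genes that lie in chromosome groups, with points for group means and lines from the lowest to the highest library. Gabra3 and Gabre stand highest in the PSC groups, where Gabrg1 is at 0, and Gabrg1 and Gabra2 stand highest of the genes drawn in the 3 ganglion groups.

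Gabra3, Gabre and Gria4 rose together in PSCs grown with ganglia, by the test with the replicate block given with their values, and the sequence upstream of these genes is shown for that reason. Each window is the 250 bases before the 5′-most annotated start (GRCm39, GENCODE M39), read 5′ to 3′ on the strand of the gene. Capitals mark CpG dinucleotides and, in Gabra3, the letters of an AP-1 match. The Gabra3 window lies at chrX:71700724-71700973, the Gabre window at chrX:71318410-71318659 and the Gria4 window at chr9:4796327-4796576, all on the minus strand.
Gabra3: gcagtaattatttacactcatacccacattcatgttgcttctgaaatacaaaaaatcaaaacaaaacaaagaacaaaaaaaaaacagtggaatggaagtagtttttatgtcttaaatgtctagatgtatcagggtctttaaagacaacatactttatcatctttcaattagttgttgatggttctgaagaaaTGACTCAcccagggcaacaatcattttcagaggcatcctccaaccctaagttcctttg
Gabre: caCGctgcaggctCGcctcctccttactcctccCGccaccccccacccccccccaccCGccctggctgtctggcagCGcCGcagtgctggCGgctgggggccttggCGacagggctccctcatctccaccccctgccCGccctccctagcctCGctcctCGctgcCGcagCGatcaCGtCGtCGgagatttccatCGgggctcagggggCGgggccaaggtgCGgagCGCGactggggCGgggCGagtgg
Gria4: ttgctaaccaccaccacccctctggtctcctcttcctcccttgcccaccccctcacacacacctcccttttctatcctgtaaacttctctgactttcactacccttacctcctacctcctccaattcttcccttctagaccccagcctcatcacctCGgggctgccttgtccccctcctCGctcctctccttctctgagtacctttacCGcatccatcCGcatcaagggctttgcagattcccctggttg
The 3 windows differed in CpG count, and no wider comparison of their sequences was made. Gabre held 23 CpG dinucleotides, a count that 7.77% of 21770 such windows reached, Gria4 held 4 and Gabra3 none, against a median of 6. The cAMP response element TGACGTCA and its half-site TGACG, searched on both strands, were in none of the 3 (1.31% and 16.3% of all windows). Every full element also holds the half-site. At such shares most windows hold no match. Neither a role of cAMP nor the start used in these cells was tested. AP-1, searched as TGANTCA on both strands, matched the Gabra3 window alone, 58 to 52 bases before the start (6.46% of all windows). Of the Gria4 window 142 bases also lie in annotated exons of another gene.

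PSC+SCG against PSC asks what the nearby ganglia did to the stellate cells. Gabra3 (alpha3) had 852, 324 and 224 normalized counts in PSC replicates 1 to 3 and 1786, 1522 and 676 in PSC+SCG replicates 1 to 3. It was higher with ganglia in each of the 3 same-numbered pairs, while the groups overlapped because PSC 1 exceeded PSC+SCG 3. Gria4 (GluA4) had 317, 117 and 103 in PSC and 538, 494 and 255 in PSC+SCG. This too was higher in all 3 pairs, with PSC 1 above PSC+SCG 3. Gabre (epsilon) had 1388, 991 and 635 in PSC and 2465, 2071 and 787 in PSC+SCG, again higher in 3 of 3 pairs and overlapping. Of the 28 members tested 8 were higher in all 3 pairs and 2 were lower, a share not counted over all genes.

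Without a term for the replicate number, none of the 28 members tested passed the threshold (adjusted p no greater than 0.05, with 0.5 or more on the log2 scale in either direction; limma, Benjamini-Hochberg over all genes). The background was the same, with 0.00% of 14541 protein-coding genes past it. At an unadjusted p under 0.05 the same fit had 3 members, Gabra3, Gria4 and Slc1a3, and 205 protein-coding genes (1.41%). At that level, on the recovered reads, edgeR had 3 members beside 1.48% of protein-coding genes, and DESeq2 had 4 beside 1.2%.

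Same-numbered libraries of the 2 groups deviated together, and with the replicate number as a block 3 members passed, all higher with ganglia. Gabra3 rose 3.09-fold (95% interval 2.46 to 3.87; log2 fold change 1.63, adjusted p = 2.9e-06 in limma). Gria4 rose 2.60-fold (1.96 to 3.44; 1.38 on the log2 scale, adjusted p = 7.4e-04 in limma). Gabre rose 1.66-fold (1.39 to 2.0; 0.73 on the log2 scale, adjusted p = 0.0056 in limma). On the log2 scale the pairs ran from 1.07 to 2.23 for Gabra3, 0.76 to 2.07 for Gria4 and 0.31 to 1.06 for Gabre. Those ranges are wider than the intervals, which limma drew mostly from the spread of other genes. In that fit 76 protein-coding genes passed (0.523%), 65 of them higher. With the same block, edgeR and DESeq2 also passed Gabra3, Gabre and Gria4 and no other member, with 0.543% and 0.447% of protein-coding genes past the threshold. Without the pair of replicate 1 or of replicate 2, Gabra3 and Gria4 passed and Gabre did not, beside 0.269% and 0.304% of protein-coding genes. With only replicates 1 and 2 joined and each replicate 3 in a block of its own, these 3 and Slc1a3 passed, beside 163 protein-coding genes (1.12%). A block of 1 library adds nothing to the difference between groups, so that fit in effect leaves replicate 3 out. Whether same-numbered libraries were made on the same date was not tested. Of the exon bases of Gria4, 0.469% are shared with Gm56143 on the same strand.

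**Figure D3:**
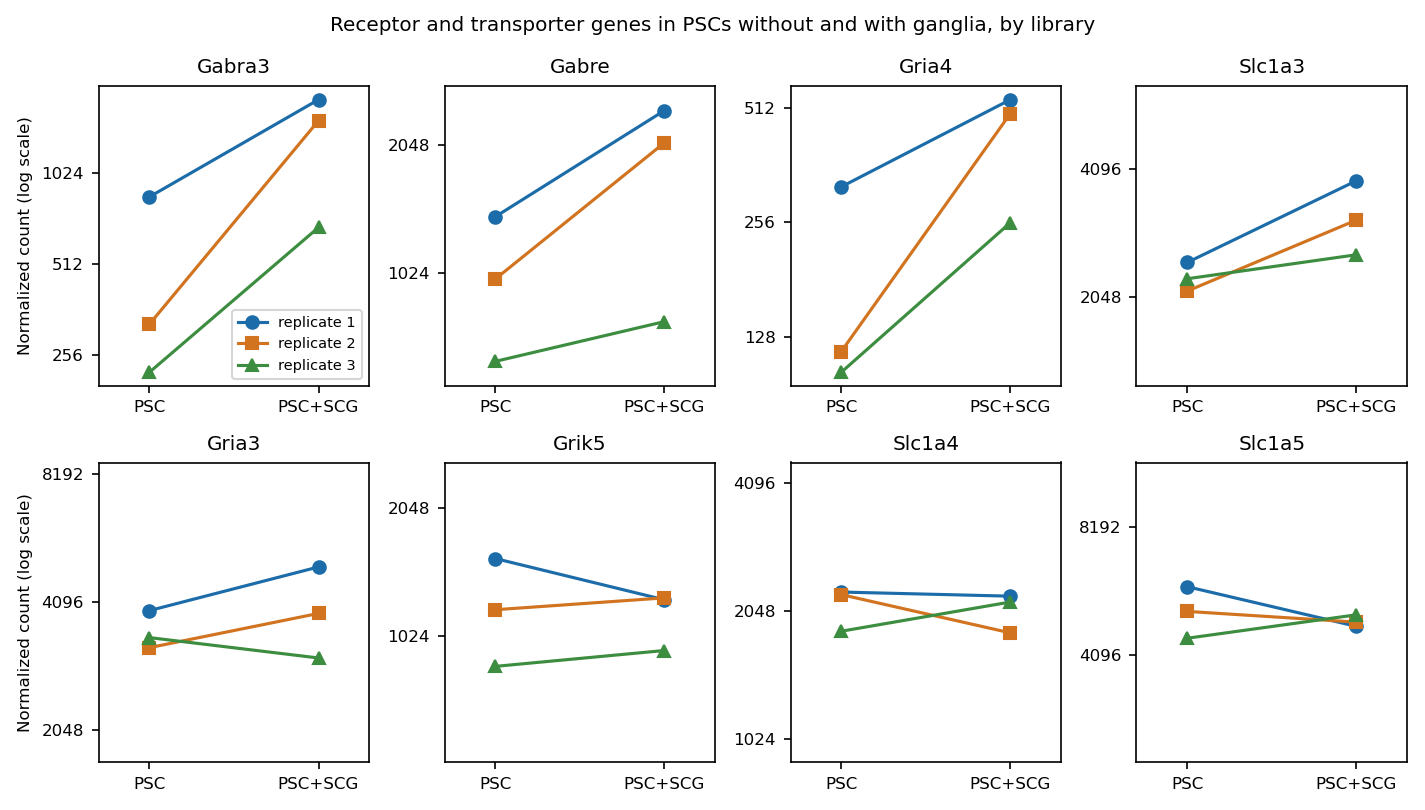
Normalized counts (vertical axes, log scale) of 8 genes in PSC and PSC+SCG, with lines joining libraries of the same replicate number. Lines of Gabra3, Gabre, Gria4 and Slc1a3 all rise, with replicate 3 lowest for the first 3 of these, and lines of Grik5, Slc1a4 and Slc1a5 cross.

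Slc1a3 stood just under the threshold. Its counts were 2469, 2115 and 2261 in PSC and 3840, 3104 and 2574 in PSC+SCG, so that the groups did not overlap. The log2 fold change was 0.46 ± 0.11 (SE) with the block, a 1.38-fold difference (95% interval 1.18 to 1.60) with an adjusted p of 0.057 in limma. DESeq2 with the block gave an adjusted p of 0.041 for Slc1a3 but a log2 fold change of 0.46, below 0.5.

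The other well-expressed members gave no call in this comparison. Slc1a5 had 5920, 5179 and 4479 in PSC and 4777, 4887 and 5084 in PSC+SCG. Slc1a4 had 2267, 2236 and 1834 in PSC and 2217, 1818 and 2148 in PSC+SCG. Grik5 had 1555, 1179 and 868 in PSC and 1244, 1257 and 946 in PSC+SCG. Each of these 3 was higher with ganglia in some pairs and lower in others. Grin2d had 355, 241 and 204 in PSC and 280, 315 and 210 in PSC+SCG. The 95% interval of the log2 fold change with the block ran from -0.29 to 0.15 for Slc1a5, from -0.26 to 0.20 for Slc1a4, from -0.28 to 0.21 for Grik5, from -0.07 to 0.37 for Gria3 and from -0.32 to 0.38 for Grin2d. Over all 28 members tested the median log2 difference was 0.22, against 0.01 over protein-coding genes, and 18 of 28 were positive. That median rested on single libraries: it was -0.05 with 13 of 28 positive without PSC 3, and 0.42 without PSC+SCG 3. Of the 28, 2 (Slc1a3 and Gabrd, the latter under 10 counts) had all PSC+SCG libraries above all PSC libraries (background 2.90%) and none had all below (background 1.47%). Grin3b, an NMDA subunit with 0.99 to 13.6 counts, had the lowest value (log2 fold change -1.40, adjusted p = 0.57 with the block in limma).

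**Figure D4:**
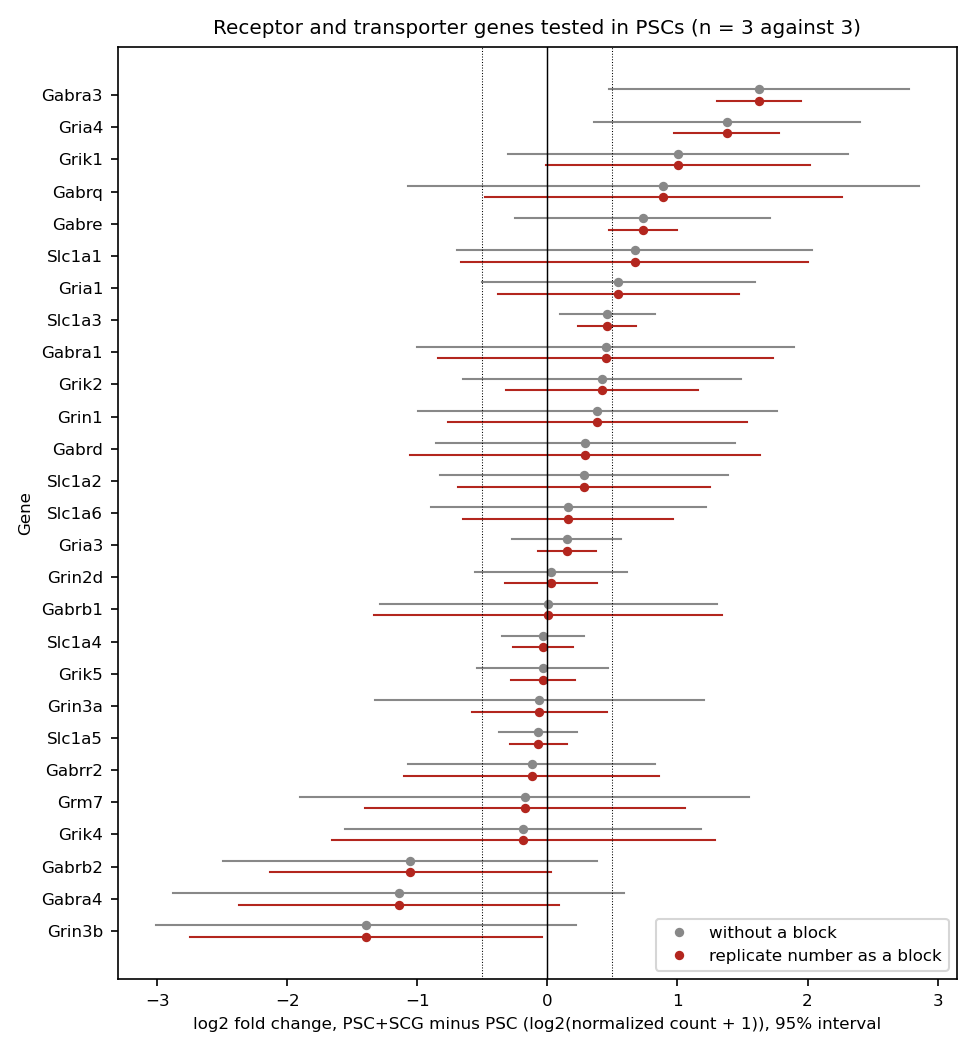
Log2 fold change with its 95% interval (horizontal axis, PSC+SCG minus PSC, on log2(normalized count + 1)) of 27 of the 28 members tested, without a block (grey) and with the replicate number as a block (red); dotted lines mark 0.5 in either direction. Intervals of Gabra3, Gria4 and Gabre narrow with the block, while those of Slc1a4, Slc1a5, Grik5 and Gria3 stay around 0. Those of Gabra3, Gria4 and Slc1a3 exclude 0 in both fits, and those of Gabre and Grin3b only with the block.

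Markers of other cells were read beside these increases. No sympathetic neuron marker passed either fit in PSC+SCG, and neither did any of the 8 glial, 6 macrophage, 4 endothelial or 7 fibroblast markers. Median log2 fold changes of the markers tested were 0.34 (5 neuron), 0.27 (6 glial), 0.24 (3 macrophage), -0.01 (3 endothelial) and 0.11 (7 fibroblast). Their part in the increases was not tested. The summed neuron list was 696 to 827 in PSC and 580 to 1011 in PSC+SCG, with Slc18a2 at 0 in all 6 libraries. Gabrg1 and Grik3, which averaged 577 and 1074 in SCG, were also at 0 in all 6. The lowest library of each group was replicate 3 for 6 of the 10 members with a mean of at least 100 (Gabra3, Gabre, Gria4, Grik5, Grin2d and Grin3a), and the part of that spread in the result was not tested beyond the block.

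In ganglia, neither partner cell moved a member past the threshold in the main fit or with the replicate block. SCG+PSC against SCG asks for the effect of stellate cells, and 0 of 45 members tested passed (limma, 2 at an unadjusted p under 0.05; edgeR 3 and DESeq2 4), and of 15908 protein-coding genes 659 (4.14%), 605 and 670 had an unadjusted p under 0.05 in the same 3 tests. Past the threshold were 0.0189% of these genes without the block and 1.94% with it, and 0.176% with each replicate 3 in a block of its own. DESeq2 with the block passed 1 member, Grin2c, beside 2.60% of protein-coding genes. The median log2 difference of the members was -0.01 and that of protein-coding genes 0.01, and the former ran from -0.18 without SCG 2 to 0.18 without SCG 3.

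Grik3 (GluK3) had 1427, 1375 and 421 normalized counts in SCG replicates 1 to 3 and 1852, 2043, 2165 and 2336 in SCG+PSC replicates 1 to 4. All SCG+PSC libraries were above all SCG libraries, the only member of 45 to be so (background 4.33%). Its log2 fold change was 1.10 (95% interval 0.49 to 1.72 with the block; adjusted p = 0.096 in limma). The pairs differed by 0.38, 0.57 and 2.36, and without replicate 3 the blocked value for Grik3 was 0.47. In SCG+MEF, Grik3 had 1763, 1914 and 770, again lowest in replicate 3.

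Grin2c (GluN2C) had 219, 35.2 and 342 in SCG, 205, 90.2 and 188 in SCG+MEF, and 86.3, 35.5, 86.5 and 54.5 in SCG+PSC. The SCG libraries spanned the whole range of the other groups. Grin2c differed from SCG by -1.10 on the log2 scale (adjusted p = 0.20 with the block in limma), and by -1.26 in DESeq2 with the block (adjusted p = 0.0050). Grm4, a presynaptic metabotropic receptor, had 51.6, 16.2 and 307 in SCG, so that the highest control was 19.0 times the lowest, and 35.5, 16.2, 35.2 and 41.4 in SCG+PSC.

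Slc1a3 was the one member lower than every SCG library in replicates 1 to 3 of both cocultures. It had 42.5, 58.0 and 45.1 in SCG, 39.3, 26.4, 21.4 and 44.4 in SCG+PSC, and 33.5, 21.0 and 22.3 in SCG+MEF. SCG+PSC 4, which did not enter the test, lay within the SCG range. The log2 fold change of Slc1a3 was -0.75 ± 0.33 (SE) for SCG+PSC and -0.91 ± 0.33 for SCG+MEF, with adjusted p of 1.0 for each in limma, and 0.41 and 0.50 with the block; both comparisons use the same SCG libraries. Besides Slc1a3, Gabrb2, at 7.88 to 42.6 counts, was lower in all SCG+PSC libraries 1 to 3 than in SCG (2 of 45 members; background 2.78%).

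The members with the highest levels in ganglia differed little between the groups compared with the spread inside each. Gria1 (GluA1) had 2410, 1653 and 2637 in SCG, 2681, 1790 and 2194 in SCG+MEF and 2691, 1687, 2717 and 2825 in SCG+PSC. Grik5 (GluK5) had 3570, 2497 and 3425 in SCG, 4066, 2839 and 2972 in SCG+MEF and 3545, 2648, 3105 and 2885 in SCG+PSC. Grin1 (GluN1) had 1673, 868 and 2023 in SCG, 1680, 1153 and 1814 in SCG+MEF and 1566, 1010, 1584 and 1416 in SCG+PSC. For all 3 the lowest library of SCG and of SCG+MEF, and of replicates 1 to 3 of SCG+PSC, was replicate 2, and the ranges of the 3 groups overlapped.

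Metabotropic receptors other than Grm7 were low. Grm7 had 973, 551 and 1012 in SCG, 796, 709 and 873 in SCG+MEF and 952, 674, 1018 and 903 in SCG+PSC. Grm2, a receptor that couples to inhibitory G proteins, had 69.9, 6.66 and 2.05 in SCG, 35.5, 28.9 and 8.11 in SCG+MEF and 46.0, 14.2, 69.4 and 23.2 in SCG+PSC. Its SCG libraries ran from 2.05 to 69.9, a spread wider than any difference between groups.

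Transporters of ganglia varied by replicate as well. Slc1a4 had 2430, 2638 and 4756 in SCG, 2421, 2940 and 4476 in SCG+MEF and 2961, 3024, 3699 and 3388 in SCG+PSC. Slc1a5 had 481, 1097 and 1302 in SCG, 628, 1137 and 1193 in SCG+MEF and 870, 1458, 905 and 848 in SCG+PSC. Slc1a6 (EAAT4, a glutamate transporter known from Purkinje cells) had 65.8, 166 and 200.8 in SCG, 96.3, 218 and 240 in SCG+MEF and 85.4, 193, 136 and 113 in SCG+PSC. In SCG and SCG+MEF, replicate 3 held the highest value of each of the 3 genes and replicate 1 the lowest, whereas in SCG+PSC replicate 2 was highest for Slc1a5 and Slc1a6.

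The ranges of Gabrg1 and Gabra2 overlapped between groups of ganglia. Gabrg1 (gamma1) had 819, 433 and 478 in SCG, 589, 525 and 625 in SCG+MEF and 901, 565, 643 and 627 in SCG+PSC. Gabra2 (alpha2) had 546, 242 and 421 in SCG, 497, 370 and 400 in SCG+MEF and 462, 303, 154 and 163 in SCG+PSC. Gabra2 was lowest in SCG+PSC 3 and SCG+PSC 4, below all SCG and SCG+MEF libraries, while SCG+PSC 1 and 2 lay within the range of the other groups.

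The members that rose in PSCs were also read in ganglia. Gria4 had 956, 554 and 1400 in SCG, 1033, 751 and 1576 in SCG+MEF and 811, 626, 1104 and 1172 in SCG+PSC. Gabra3 had 134, 71.4 and 302 in SCG, 166, 123 and 282 in SCG+MEF and 128.5, 67.9, 148.5 and 113 in SCG+PSC. Both were lowest in replicate 2 of each group, and their groups overlapped. Gabre had 68.9, 155 and 122 in SCG, 107, 114 and 57.8 in SCG+MEF and 73.9, 99.3, 57.7 and 42.4 in SCG+PSC, with overlapping groups as well.

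SCG+MEF against SCG serves as the control for any fibroblast. It passed 0 of 45 members in limma, with 0.0189% of protein-coding genes past the threshold without the block and 0.239% with it. At an unadjusted p under 0.05 limma had 1 member, Slc1a3, beside 2.44% of protein-coding genes. There edgeR and DESeq2 had 1 each, beside 2.32% and 2.51%. Members had a median log2 difference of 0.14 against 0.03 over protein-coding genes, and 33 of 45 were positive. Without SCG 2 the median was -0.10 with 20 of 45 positive, and without SCG+MEF 3 it was 0.0032. Only 1 was higher in all libraries (Gabrr2, under 10 counts; background 2.95%) and 1 lower (Slc1a3; background 2.04%). Of the 45 members 11 were higher in 3 of 3 pairs and 3 were lower, a share not counted over all genes. Gria2 and Gria4 were among the 11, by 0.10 to 0.24 and 0.11 to 0.44 on the log2 scale, with adjusted p of 0.64 for each with the block in limma.

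SCG+PSC against SCG+MEF asks whether the 2 partner cells differed in their effect. No member of 45 passed in limma, where 0.00% of protein-coding genes were past the threshold. At an unadjusted p under 0.05 no member was found in limma, edgeR or DESeq2, beside 3.07%, 3% and 3.21% of protein-coding genes. None passed with the block either, where 1.14% of protein-coding genes did, and 0.0126% with each replicate 3 in a block of its own. With the block 7 of 45 members had an unadjusted p under 0.05, a share near the background of 14.8% of protein-coding genes, among them Grin2c and Gria4 with an adjusted p in limma of 0.14, and with 0.15 for Grm4, 0.18 for Gabra3, 0.35 for Grik2 and 0.40 for Gabra2. Of the 7 only Grik2 was higher with PSCs.

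Grin2c and Grm4 were the 2 members lower in SCG+PSC 1 to 3 than in every SCG+MEF library (background 3.68%), and Grik2 was the one higher (background 3.33%). Grm4 had 75.0, 46.4 and 193 in SCG+MEF, and SCG+PSC minus SCG+MEF was -1.06, -1.46 and -2.42 in pairs 1 to 3 (log2). Grin2c pairs differed by -1.24, -1.32 and -1.11. DESeq2 with the block passed these 2 (Grin2c -1.27, adjusted p = 0.0052; Grm4 -1.62, adjusted p = 0.0098), beside 2.30% of protein-coding genes. Gria4 was lower with PSCs than with MEFs in 3 of 3 pairs (differences of -0.35, -0.26 and -0.51 on the log2 scale), and Gabra3 differed by -0.37, -0.84 and -0.92. Of 45 members 13 were lower in all 3 pairs and 3 were higher, a share not counted over all genes.

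**Figure D5:**
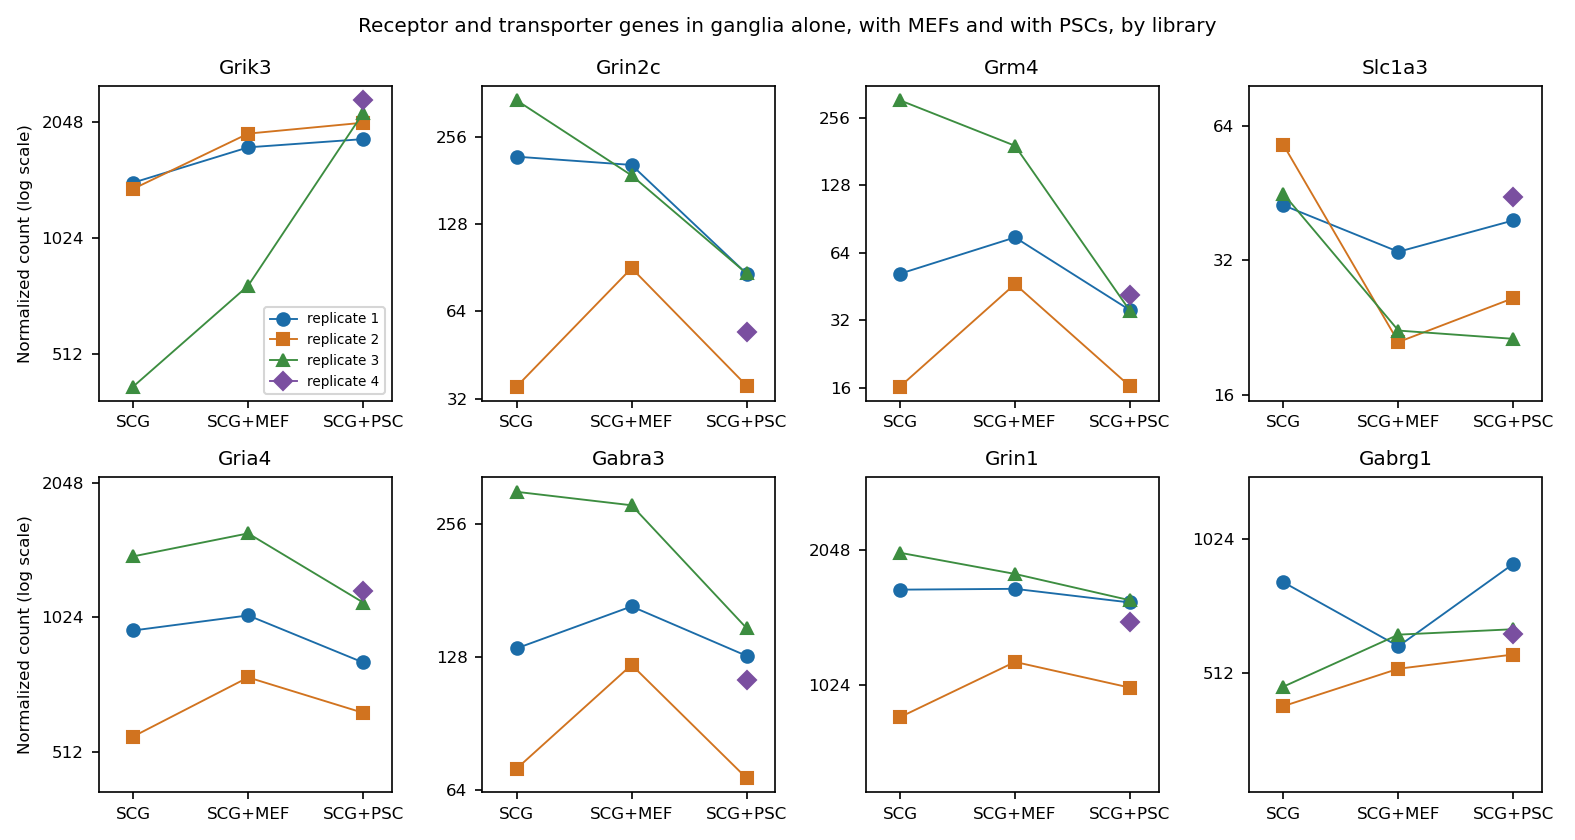
Normalized counts (vertical axes, log scale) of 8 genes in SCG, SCG+MEF and SCG+PSC, with lines joining libraries of the same replicate number and a diamond for SCG+PSC 4. Grik3 is lowest in SCG 3 and SCG+MEF 3, Grin2c and Grm4 fall from SCG+MEF to SCG+PSC on each line, and replicate 2 is lowest throughout for Gria4, Gabra3, Grin1 and Gabrg1.

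Replicate numbers carried a pattern of their own in ganglia. Of the 22 members with a mean of at least 100, 13 were lowest in replicate 2 in each of the 3 groups, among them Gria1, Grin1 and Grm7, and 7 were lowest in replicate 2 in none, among them Gria3, Grik2, Slc1a4 and Slc1a5. Sympathetic neuron markers summed to 203029, 115826 and 266655 in SCG 1 to 3, to 216260, 168704 and 251233 in SCG+MEF, and to 193244, 133178 and 235510 in SCG+PSC. They too were lowest in replicate 2 of each group. Proliferation markers were highest there (13133, 13660 and 18897 in replicate 2 of SCG, SCG+MEF and SCG+PSC), and all 4 (Mki67, Top2a, Ccnb1 and Cdk1) rose with the block in SCG+PSC against both other groups. Endothelial markers summed to 1147 to 1744 in SCG, 1739 to 1974 in SCG+MEF and 1754 to 2574 in SCG+PSC, so that all SCG+PSC libraries were above all SCG libraries, although none of the 4 genes passed. Lum, a fibroblast proteoglycan, was higher with the block in both cocultures. Of the 8 glial genes, Fabp7 and Kcnj10 were lower with the block in SCG+MEF than in SCG, while the summed list overlapped (57930 to 76114 in SCG, 66426 to 78851 in SCG+MEF and 60895 to 74436 in SCG+PSC). The part of these cell markers in the nerve values was not tested.

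Genes around the receptors were read from 5 lists: glutamate metabolism and vesicular loading, GABA synthesis, breakdown and transport, delta and GABA-B receptors, auxiliary subunits, and scaffolds. Of their 59 genes 41 were tested in PSCs and 59 in ganglia, and none passed without the block in any of the 4 comparisons. With the block 1 of 41 genes passed in PSCs (background 0.523%) and 1 of 59 in SCG+PSC against SCG (background 1.94%). The gene was Slc6a12 in both, the betaine and GABA transporter BGT1, higher in PSC+SCG and lower in SCG+PSC. It had 145, 89.7 and 155 normalized counts in PSC and 265, 137 and 448 in PSC+SCG, groups that overlapped (log2 fold change 1.0 ± 0.20, SE; adjusted p = 0.018 in limma). In ganglia Slc6a12 had 424, 380 and 369 in SCG and 302, 273, 238 and 268 in SCG+PSC (-0.53 ± 0.12; adjusted p = 0.0498 in limma), and its SCG+MEF difference of -0.19 did not pass.

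Partners of the receptors differed between the cells as the subunits did. Cacng7, an AMPA receptor auxiliary subunit, had 2106 to 2628 normalized counts in PSC libraries, whereas Cacng2 and Cacng3 were at 0 in all 6 and had 444 to 972 and 1045 to 1554 in ganglia. Gabbr1 had 1440 to 2203 in PSC libraries, but Gabbr2, its obligatory partner in the GABA-B receptor, did not exceed 2.13 there and ranged from 364 to 963 in ganglia. Neto2, a kainate receptor auxiliary subunit, was present in both, at 753 to 1369 and 375 to 725.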

How the data were processed

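Libraries were made from poly(A) RNA with a stranded kit. Per the labels and the study's methods, the authors aligned reads with STAR 2.7.10b to GRCm39, counted stranded reads per GENCODE gene, and deposited a table of PSC libraries and a table of nerve libraries as counts divided by DESeq2 1.38.3 size factors (R 4.2.2), which is the signal analysed here. Both tables are on their own scale. All values above 0 were whole multiples of 1 read within 0.1 read in all 16 libraries, so reads were recovered, and 0 columns were left without a sample. In PSC+SCG 1 and SCG+PSC 4 the value of 1 read was within 0.02 of 1.

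Genes with a summed normalized count of at least 10 over the libraries of a test were fitted on log2(value + 1), so fold changes of low genes are understated, with limma 3.58.1 in R 4.3.3 (trended empirical Bayes, Benjamini-Hochberg over all genes tested). PSC fits used 6 libraries and nerve fits 9, with SCG+PSC 1 to 3. The threshold was an adjusted p of 0.05 or less with 0.5 or more on the log2 scale. Backgrounds are shares of protein-coding genes. The fit was tested on simulated data that held no replicate effect, so that test does not bear on the pairing. Alternatives included a replicate block, edgeR 4.0.16 and DESeq2 1.42.0. Libraries with the same replicate number deviated together. Their deviations from the group means correlated across genes at 0.47 to 0.70 in PSCs and 0.25 to 0.63 in ganglia. The lowest value, 0.25, was that of replicate 3 of SCG+PSC and SCG+MEF. The study's own model used the experiment date, and neither the labels nor the study's text tie a library to a date. Dates shown beside the study's heat maps put PSC and PSC+SCG on 2 shared dates and on 1 each of their own, and 1 of the 3 SCG+PSC libraries shown on a date that SCG and SCG+MEF lack, so that the numbers may not pair by date in replicate 3. A block shared by replicates 1 and 2 alone, with each replicate 3 apart, was therefore also fitted. In that fit the replicate 3 libraries add nothing to the difference between groups, which rests on replicates 1 and 2. Whether replicates were separate cultures is not stated. The p-values rest on the spread between these libraries, which limma moderates toward the spread of other genes of similar level. In the blocked PSC fit that moderation outweighs the few libraries, so its p-values and intervals rest mostly on other genes.

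Values in every library are given for members past the threshold in either fit, for Gria4, Slc1a3 and Gabre, and for the 3 members of each class with the highest level per kb of exon (union of GENCODE M39 exons) and a mean of at least 10. Values of 2 members and 1 marker are not reported here. Other members were named after their values were seen. Members and gene lists were chosen with earlier results of these data known. Motifs were read from GRCm39 sequence.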

Additional observations from a re-analysis of the deposited data

Results flagged for a closer look

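In the 4 SCG+PSC libraries, 1 library stood apart from the other 3 for 2 of the 18 members tested, by the ratio of its gap to the range over all 4. Gria1 had 2691, 1687, 2717 and 2825 normalized counts in replicates 1 to 4, with replicate 2 low (ratio 0.882). Slc1a5 had 870, 1458, 905 and 848, with replicate 2 high (ratio 0.907). Chance alone marks about 1 in 20 such groups. In the same library the summed neuron markers were lowest (133178) and the summed proliferation markers highest (18897) of the 4, and their part in these values was not tested.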

How the results depend on the processing

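For PSC+SCG against PSC, the number of members that passed was 0 under the other pseudocounts and filters, quantile normalization, adjusted p alone, edgeR, DESeq2, and without any 1 library (0 to 0). The pairing changed it: 3 with the replicate block (0.523% of protein-coding genes), and 3 with the block in edgeR (0.543%) and in DESeq2 (0.447%). With the block in limma it was 2 without replicate 1 (0.269%), 2 without replicate 2 (0.304%) and 4 without replicate 3 (1.24%). Replicates 3 in blocks of their own also gave 4 (1.12%), a fit from which replicate 3 in effect drops out. Slc1a3 was the addition in both fits with 4. In ganglia the counts were 0 except with the block. DESeq2 with the block gave 1 for SCG+PSC against SCG and 2 for SCG+PSC against SCG+MEF (2.60% and 2.30% of protein-coding genes). In the same 2 comparisons the limma block without replicate 2 gave 2 (Grik3 and Grin2c) and 1 (Grin2c), beside 2.19% and 1.75%. The block changed no other call. The fits of reads with a block, the count tests of the PSC libraries and the block without 1 replicate number were chosen after seeing the data. Gria4 in SCG+MEF against SCG turned from 0.24 to -0.11 without SCG 2 and to -0.04 without SCG+MEF 3, and ranged from -0.11 to 0.56 on the log2 scale over libraries left out; the cause was not tested. Gria4, Slc1a3 and Gabre in PSCs, and the other members with an unadjusted p under 0.05 in either fit of a comparison, kept the sign of that fold change in the alternatives run; fold changes with a larger p were not followed. With 3 libraries a group and replicate numbers ignored, an exact permutation test cannot go below 0.10. Permuting within pairs allows fewer arrangements, so its lowest p is higher.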
